A study of Mus musculus with 12 samples.

Results

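Among 12 mammary gland arrays, 7 held a high signal of Pou2af1, a B cell transcriptional coactivator, and 5 a low one, and these lymphoid-rich and lymphoid-poor arrays were set against each other across all genes. The arrays were chosen by the measured Pou2af1 value itself, with rich meaning a log2 intensity of 6 or more and poor a value below 6. The genes compared between the 2 classes are therefore a description of that choice, while genotype and treatment, which come from the labels, were not used in making it. Each array measured total RNA of the mammary gland of 1 C57BL/6 mouse, in 4 groups of 3 mice: Ccnd1-/- with estradiol, Ccnd1-/- with placebo, Ccnd1+/+ with estradiol and Ccnd1+/+ with placebo. The Ccnd1-/- mice, called knockout below, lack cyclin D1 in the whole body, and the Ccnd1+/+ mice are called wildtype. All 12 were virgin and ovariectomized, and carried for 7 days either a placebo or a pellet of 0.72 mg estradiol made for release over 60 days. Which of the glands was used, how much of it, and whether a lymph node was left in it is not given in the labels.

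The inguinal mammary fat pad of the mouse holds a lymph node, so a piece of gland can carry B cells, T cells and the node's own vessels and stroma beside epithelium, fat and connective tissue. Lymphocytes enter a node through high endothelial venules, whose cells make sulphated glycoproteins that bind L-selectin, and B and T cells then settle in separate zones under the guidance of chemokines and lymphotoxin. Pou2af1 (OBF-1) binds with Oct1 or Oct2 to the octamer ATGCAAAT, a motif known from immunoglobulin promoters. In bulk tissue, fewer cells of a type and less RNA per cell cannot be told apart.

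The 2 classes lay far apart on the measure that chose them. In the 7 rich arrays Pou2af1 read 9.21 and 7.98 in knockout estradiol replicates 2 and 3, 9.90 and 9.86 in knockout placebo replicates 1 and 3, 8.34 in wildtype estradiol replicate 2, and 9.86 and 9.13 in wildtype placebo replicates 1 and 2. In the 5 poor arrays it read 2.84 in knockout estradiol replicate 1, 2.77 in knockout placebo replicate 2, 2.98 and 2.88 in wildtype estradiol replicates 1 and 3, and 3.25 in wildtype placebo replicate 3. The lowest value inside the rich class was thus 7.98 and the highest outside it 3.25, and all 5 poor values lay in the lower quartile of their array. A threshold of 7 in place of 6 moved no array. Rich arrays made up 2 of 3 in knockout estradiol, 2 of 3 in knockout placebo, 1 of 3 in wildtype estradiol and 2 of 3 in wildtype placebo, so that every group held both classes.

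Neither labelled factor was shown to move Pou2af1. It averaged 5.70 ± 3.10 under estradiol and 7.46 ± 3.46 under placebo (SD, n = 6 each), a difference of -1.76 (exact two-sided permutation p = 0.260, adjusted over 2 tests 0.519). It averaged 7.09 ± 3.39 in knockout and 6.07 ± 3.36 in wildtype mice (SD, n = 6 each), a difference of 1.02 (exact two-sided permutation p = 0.660, adjusted 0.660). With 3 rich arrays of 6 under estradiol, 4 of 6 under placebo, 4 of 6 in knockout and 3 of 6 in wildtype mice and 924 possible arrangements of the arrays, these p-values do not show that the treatments or genotypes were alike.

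The other lymphoid markers went with the label. They were chosen with earlier results of these data known, so this describes the classes and does not test the label. Cd79a, a chain of the B cell receptor complex, ranged from 7.28 through a median of 9.0 to 9.54 in rich arrays, against 4.86 in knockout estradiol, 5.63 in knockout placebo, 4.59 and 4.86 in wildtype estradiol and 5.60 in wildtype placebo among poor arrays. Cd22, an inhibitory coreceptor of B cells, ranged from 9.67 through 11.45 to 11.96 in rich arrays, against 5.51, 6.28, 7.46, 5.92 and 6.08 in the poor arrays in the same order. Il7r, the interleukin-7 receptor chain of resting T cells and lymphoid precursors, ranged from 9.09 through 10.98 to 11.35 in rich arrays, against 4.55, 5.53, 5.23, 4.68 and 5.26 in poor ones. No poor array reached the lowest rich array in Cd79a, Cd22 or Il7r, as the plot of the 5 lymphoid genes shows. In Pou2af1 the choice of arrays fixes this.

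**Figure D1:**
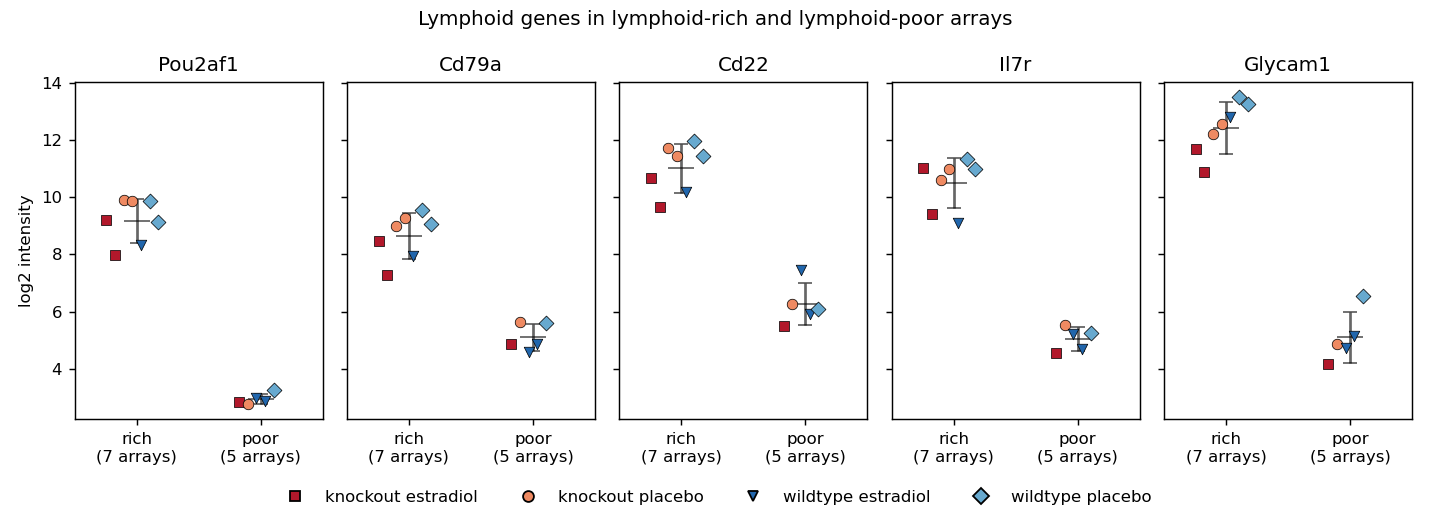
Log2 intensity of Pou2af1, Cd79a, Cd22, Il7r and Glycam1 (vertical axis) in the 7 lymphoid-rich and the 5 lymphoid-poor arrays. Points are single arrays marked by genotype and treatment, and bars are the mean and SD of each class. The lowest rich value of Pou2af1 is 7.98 and the highest poor value 3.25. In each gene every rich array lies above every poor array, which for Pou2af1 follows from the choice of arrays.

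The promoters of 3 genes are shown here as examples of what the lymphoid-rich arrays carry. Vpreb3 was the only gene to hold the octamer among the 15 of 20 measured B cell genes with a RefSeq promoter here. The rest, Ms4a1 and Cd79b among them, could not be searched. Cd79a is a marker of the choice whose promoter did not hold the octamer, and Glycam1 is the gene with the largest difference. Sequences are RefSeq promoters of build GRCm38.p6, 250 bases before to 50 after the gene's start, in the gene's direction, and capitals mark the octamer read as ATTTGCAT on the gene's strand. They lie at chr10:75948050-75948349 on the plus strand for Vpreb3, at chr7:24897247-24897546 on the plus strand for Cd79a and at chr15:103565032-103565331 on the minus strand for Glycam1.
Vpreb3: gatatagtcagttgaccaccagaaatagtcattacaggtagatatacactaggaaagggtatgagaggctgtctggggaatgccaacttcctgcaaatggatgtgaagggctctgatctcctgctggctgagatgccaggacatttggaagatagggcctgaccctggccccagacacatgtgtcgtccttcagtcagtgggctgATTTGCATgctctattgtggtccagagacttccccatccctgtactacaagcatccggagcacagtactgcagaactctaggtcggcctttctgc
Cd79a: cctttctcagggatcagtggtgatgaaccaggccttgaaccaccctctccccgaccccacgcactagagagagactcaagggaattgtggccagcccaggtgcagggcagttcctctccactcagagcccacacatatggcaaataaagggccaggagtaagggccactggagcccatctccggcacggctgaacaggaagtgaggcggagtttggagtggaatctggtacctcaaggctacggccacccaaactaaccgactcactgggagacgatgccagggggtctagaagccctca
Glycam1: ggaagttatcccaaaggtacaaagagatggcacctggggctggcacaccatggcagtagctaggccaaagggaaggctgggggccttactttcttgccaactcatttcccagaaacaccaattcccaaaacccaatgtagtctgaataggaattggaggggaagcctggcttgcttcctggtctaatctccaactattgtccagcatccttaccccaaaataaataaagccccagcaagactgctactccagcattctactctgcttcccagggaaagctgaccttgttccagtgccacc
The octamer was searched as ATGCAAAT and ATTTGCAT, which are the 2 strands of 1 motif, and began at position -45 in Vpreb3. It stood in 570 of all 32851 promoters (1.74%) and in 242 of 14368 measured genes with a promoter in the table (1.68%). In the lists of this report it stood in 1 of 15 B cell genes, 2 of 13 B cell receptor signalling genes, 1 of 10 pan-leukocyte genes and none of 16 T cell genes. A match is a stretch of letters in this window, and nothing was measured on binding.

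Across 18193 genes, each represented by its brightest probe set, the difference between rich and poor arrays was fitted with the 4 group means in the model (limma). As each group held both classes, the value is the mean of the differences within the 4 groups. Past an adjusted p of 0.05 lay 2068 genes higher in rich arrays (11.4% of all tested) and 1846 lower (10.1%). These shares describe the choice of arrays and carry no test. The higher genes moved further: 702 exceeded 1 log2 unit and 231 exceeded 2, against 93 and 1 among the lower ones. In 825 genes (4.53%) every rich array lay above every poor array and in 295 (1.62%) every rich array lay below. With the mean of all probe sets 1910 genes were higher and 2141 lower, and under quantile scaling 2045 and 2051. Without wildtype placebo replicate 3 the count past the threshold was 1260 in place of 3914, with 944 higher and 316 lower. Without knockout placebo replicate 2 it was 1273, with 930 higher and 343 lower. Adding the gap between the 3' and 5' probe sets of Gapdh, a sign of RNA quality, to the fit gave 2001, with 1298 higher and 703 lower. The lower count thus shrank more than the higher one without either array and with the Gapdh gap. The Gapdh gap ranged from 2.41 to 3.56 in rich and from 2.10 to 3.22 in poor arrays. Within wildtype placebo it was 3.04 and 3.26 in rich against 2.10 in poor arrays, and within knockout placebo 3.26 and 3.31 against 3.20. It was 3.56 and 3.47 against 3.22 within knockout estradiol, but 2.41 against 2.55 and 3.09 within wildtype estradiol. The gap was thus larger in rich arrays in every group but wildtype estradiol, and its part in the result was not tested otherwise.

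Glycam1, a ligand of L-selectin made by high endothelial venules and also by milk-producing epithelium, had the largest difference of all genes. It ranged from 10.90 through 12.56 to 13.50 in rich arrays, against 4.18 in knockout estradiol, 4.87 in knockout placebo, 4.74 and 5.13 in wildtype estradiol and 6.54 in wildtype placebo among poor arrays, a difference of 7.34 ± 0.19 (SE). Within groups the difference was 7.11 in knockout estradiol, 7.52 in knockout placebo, 7.87 in wildtype estradiol and 6.85 in wildtype placebo. Next came Fcmr, the receptor for the constant part of IgM, with 9.14, 11.21 and 11.80 as lowest, median and highest rich values against 3.58, 4.24, 3.82, 4.36 and 4.76 in poor arrays, a difference of 6.57 ± 0.27. Ms4a1, which encodes the B cell surface protein CD20, read 9.78, 11.36 and 11.77 against 3.74, 4.88, 3.61, 4.03 and 5.12, a difference of 6.48 ± 0.19. All 5 poor values of Fcmr and 4 of those of Ms4a1 lay in the lower quartile of their array, where low levels are poorly resolved. Pou2af1 itself differed by 6.13 ± 0.29.

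The other genes among the 20 largest differences were mostly B and T cell genes, and their rich and poor values did not overlap. From B cells they included H2-Ob at 5.76, a chain of a class II regulator, the transcription factor Spib at 5.03, Cd79b at 4.96, the partner of Cd79a, and Btla at 4.78, an inhibitory receptor shared with T cells. From T cells they included Ms4a4b at 5.48, Cd5 at 5.34, a scavenger-type receptor also found on some B cells, and Ccr7 at 4.50, the chemokine receptor that leads T cells and dendritic cells into the node's T zone. Ikzf3, an Ikaros-family factor of lymphocytes, differed by 4.90 and Ltb, lymphotoxin beta, by 4.88. Acap1 at 4.64, Gpr18 at 4.54 and Nlrc3 at 4.51 completed the set beside the receptor probe sets Ighv14-2 at 5.82 and Trbv1 at 5.66. Probe sets of immunoglobulin and T cell receptor variable genes may bind near-identical copies, so their gene names are uncertain. With the mean of all probe sets of a gene the difference was 3.07 for Trbv1, 2.89 for Ms4a4b, 2.84 for Acap1, 2.40 for Nlrc3 and 2.02 for Ikzf3.

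**Figure D2:**
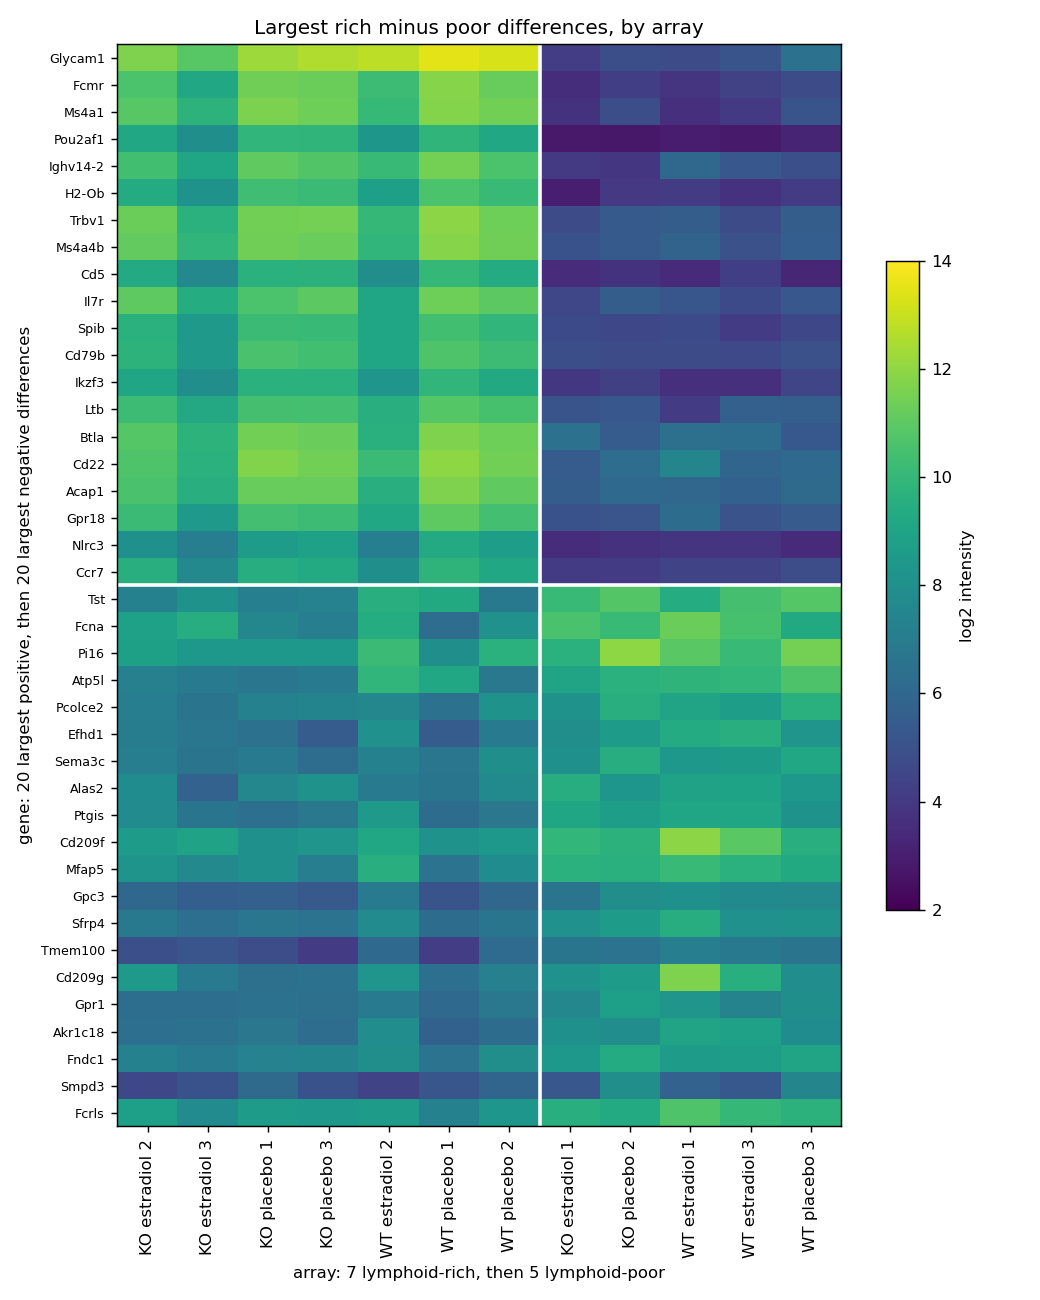
Log2 intensity (colour) of the 20 genes with the largest positive and the 20 with the largest negative difference between lymphoid-rich and lymphoid-poor arrays (rows), in the 7 rich arrays and then the 5 poor arrays (columns; KO, knockout; WT, wildtype). All 20 upper genes are separate between the classes, and 9 of the 20 lower genes are.

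The genes closest to Pou2af1 once the group means were removed were Ikzf3, a probe set of an immunoglobulin kappa variable gene, Ccr6, Fcmr, H2-Ob, Cd79b, Acap1, Spib, Ighv14-2 and Tnfrsf13c. Their Pearson correlations with Pou2af1 across the 12 arrays lay from 0.996 to 0.999, and most of that comes from the gap between the 2 classes. Ccr6, a chemokine receptor of B cells and some T cells, had a small difference among them, 2.06 ± 0.14, with rich values of 6.92, 7.70 and 7.93 against 5.35, 5.19, 5.25, 5.28 and 5.71.

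Of 20 measured B cell genes all 20 were past the threshold and higher in rich arrays, with a median difference of 3.85, beside a median of -0.07 over all genes. In 18 of the 20 the classes did not overlap. Vpreb3, at 0.63 ± 0.16, and Pax5, the factor that fixes B cell identity, at 0.91 ± 0.20, had the smallest differences. Of 14 genes of B cell receptor signalling 13 were past the threshold and higher, with a median of 1.59, among them the adaptor Blnk at 2.77 ± 0.32 and the kinase Btk at 1.85 ± 0.32. Without wildtype placebo replicate 3 or without knockout placebo replicate 2 the 13 became 8.

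Later stages of the B cell line were uneven. Of 8 plasma cell genes 3 were past the threshold, all higher in rich arrays, and the list median was 0.12. Without wildtype estradiol replicate 2, 2 others were past it and lower, and 1 was without wildtype estradiol replicate 1. Jchain, the joining chain of secreted IgM and IgA, ranged from 9.96 through 10.41 to 12.21 in rich arrays against 5.50, 6.44, 6.90, 5.89 and 7.60 in poor ones, a difference of 4.28 ± 0.36, and Mzb1, a chaperone of antibody secretion, differed by 3.76 ± 0.27. Xbp1, the secretory regulator also used by epithelium, differed by 0.02 ± 0.12 and Irf4 by -0.75 ± 0.26, both short of the threshold. Of 6 germinal centre genes 2 were past it (4 without wildtype estradiol replicate 2), Rgs13 at 2.11 ± 0.38 and Gcsam at 1.38 ± 0.22, while Bcl6, the germinal centre repressor, read 0.91 ± 0.30 and was not. None of the 5 genes of antigen receptor recombination, Rag1 and Rag2 among them, was past the threshold, and their median was 0.17, though 1 was without wildtype estradiol replicate 2 or knockout placebo replicate 1.

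T cell genes were higher in rich arrays in 21 of 22 cases, with a median of 2.89. Cd3d, Cd3g and Cd3e, the T cell receptor's signalling chains, differed by 3.90 ± 0.28, 3.64 ± 0.37 and 2.03 ± 0.24. The exception was Zap70, the kinase behind that receptor, whose brightest probe set differed by -0.11 ± 0.08 while another of its 3 probe sets differed by 2.70. All 7 regulatory T cell genes were past the threshold and higher, led by the costimulator Icos at 3.73 ± 0.23, with Foxp3, the factor that defines these cells, at 1.29 ± 0.23. Of 11 cytotoxic and NK cell genes 5 were, led by the chemokine Ccl5 at 4.41 ± 0.38 and the NK receptor chain Klrd1 at 3.01 ± 0.38, while Ncr1, a defining NK receptor, read -0.03 ± 0.08. The cytotoxic count was 3 without wildtype placebo replicate 3 or without knockout placebo replicate 2, and 8 without wildtype estradiol replicate 1.

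General leukocyte genes and the antigen presentation genes were higher in the rich arrays too. All 15 pan-leukocyte genes were past the threshold, with a median of 2.51 and Ptprc, which encodes CD45, at 2.91 ± 0.42, and 10 were without knockout placebo replicate 2. All 8 MHC class II genes were past it, with a median of 1.52, and Ciita, their master regulator, differed by 2.40 ± 0.23. Of 11 dendritic cell genes 8 were, led by Cd83 at 3.31 ± 0.38 and the chemokine Ccl22 at 2.32 ± 0.33, while Xcr1, a receptor of cross-presenting dendritic cells, read 0.06 ± 0.09. Only 4 of the 8 were without wildtype placebo replicate 3 or without knockout placebo replicate 2.

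Genes of the vessels and stroma of a lymph node were past the threshold in part. Of 6 high endothelial venule genes 4 were past the threshold and higher: Glycam1, the sulphotransferase Chst4 at 0.71 ± 0.15, the fucosyltransferase Fut7 at 0.57 ± 0.13 and the addressin Madcam1 at 0.51 ± 0.15. The count was 2 without wildtype placebo replicate 3. Of 6 lymph node stroma genes 3 were past the threshold, Il7 at 0.79 ± 0.25, Cxcl12 at 0.46 ± 0.13 and Grem1 at 0.42 ± 0.09, none without wildtype placebo replicate 3 or knockout placebo replicate 2, and 1 without knockout placebo replicates 1 or 3 or knockout estradiol replicates 1 or 2. Cxcl13, the chemokine that draws B cells into follicles, ranged from 10.49 through 11.37 to 12.04 in rich arrays. In poor arrays it read 4.93 in knockout estradiol, 10.24 in knockout placebo, 11.46 and 5.60 in wildtype estradiol and 8.80 in wildtype placebo. Poor arrays thus spanned nearly the whole scale of this gene, and its difference of 3.03 ± 0.97 was not past the threshold.

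In the lymphotoxin pathway, whose ligands on lymphocytes act on receptors of stromal cells, the ligands and the receptor differed in direction. Of 10 genes 6 were past the threshold and higher and 1 was lower. Ltb ranged from 9.23 through 10.44 to 10.84 in rich arrays against 5.11, 5.24, 4.10, 5.67 and 5.62 in poor ones, and the companion ligand Lta differed by 1.80 ± 0.19. Cd40, the costimulatory receptor of B cells and dendritic cells, differed by 2.15 ± 0.38, and Nfkb2 by 0.43 ± 0.11. Ltbr, the lymphotoxin receptor carried by stroma, was lower in rich arrays at -0.52 ± 0.14. Without wildtype placebo replicate 3 or without knockout placebo replicate 2 the 6 became 3. Ltbr was not past the threshold without either of these or without knockout placebo replicates 1 or 3.

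Dividing cells' genes were also higher. Of 36 cell cycle genes 29 were past the threshold, all higher in rich arrays, with a median of 1.10, and 18 were without knockout placebo replicate 2. Mki67, a marker of cycling cells, ranged from 8.52 through 9.51 to 10.58 in rich arrays, against 6.95 in knockout estradiol, 7.56 in knockout placebo, 7.82 and 8.52 in wildtype estradiol and 6.24 in wildtype placebo among poor arrays, a difference of 2.18 ± 0.40. The difference was 0.35 within wildtype estradiol, against 2.09, 2.77 and 3.50 within knockout estradiol, knockout placebo and wildtype placebo. Mcm5, a subunit of the replicative helicase, differed by 2.14 ± 0.33. None of the 5 D-type cyclin and kinase genes was past the threshold. Ccnd1 differed by 0.28 ± 0.22, and the brightest probe set of Ccnd3 by -0.12 ± 0.10 where another of its 3 probe sets differed by 1.90. Of 14 ribosomal protein genes 12 were past the threshold and higher, with a median of 0.42 and at most 0.62. None was without wildtype placebo replicate 3 or knockout placebo replicate 2, and 6 or 7 were without wildtype placebo replicate 1, knockout placebo replicates 1 or 3 or knockout estradiol replicates 1 or 2.

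**Figure D3:**
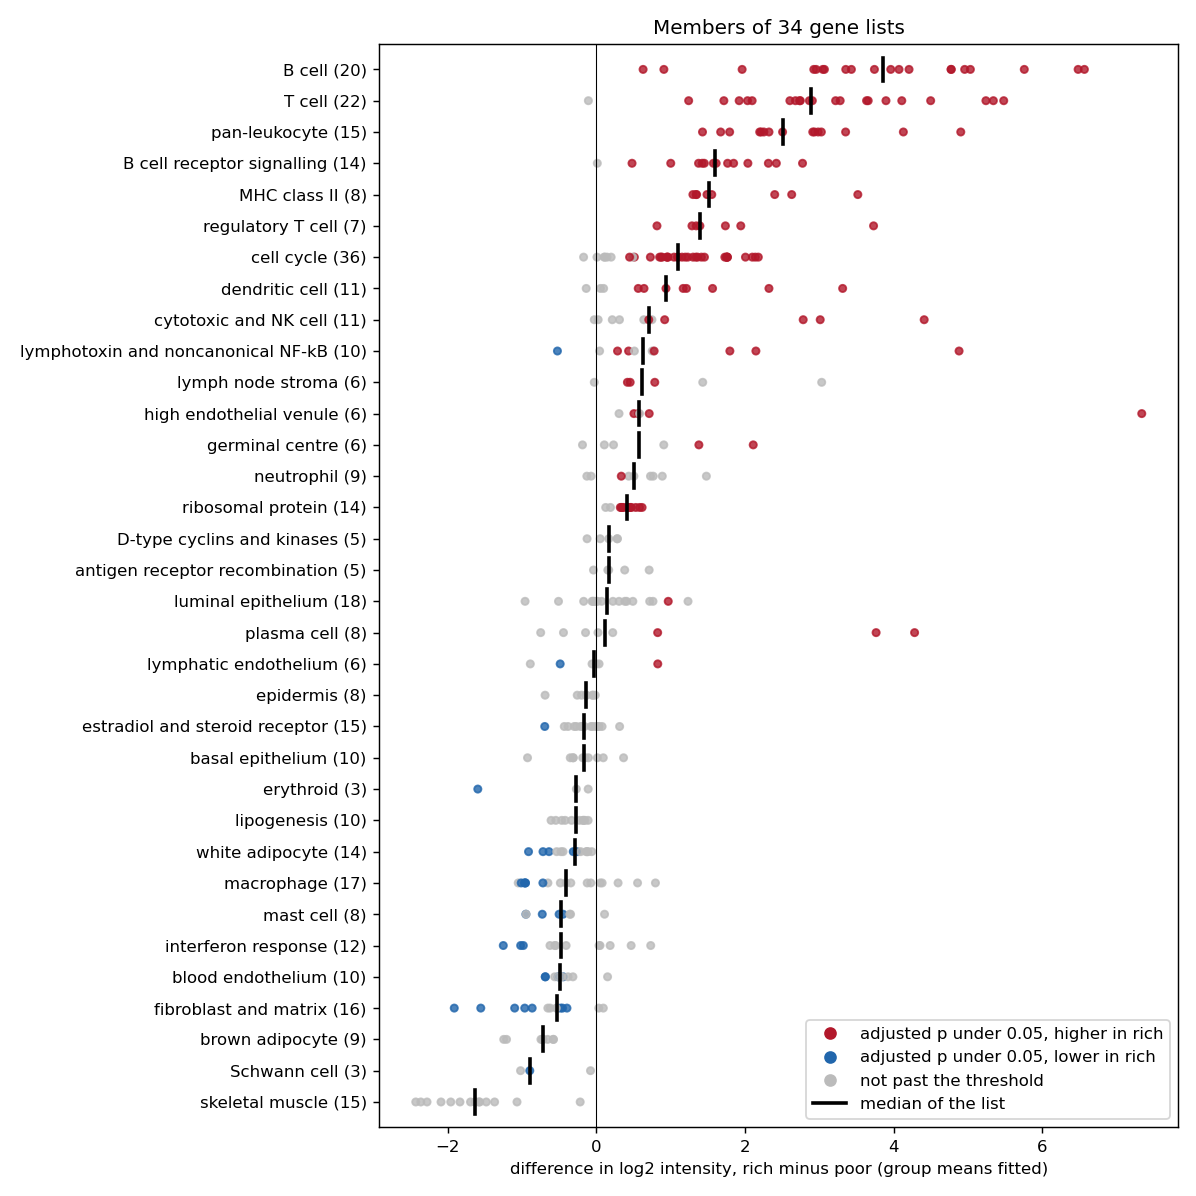
Difference in log2 intensity between lymphoid-rich and lymphoid-poor arrays (horizontal axis) for the members of 34 gene lists (rows, with the number measured). Points are genes, coloured by whether the adjusted p is under 0.05, and black bars are list medians, from 3.85 for B cell genes to -1.63 for skeletal muscle genes.

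Genes lower in rich arrays differed less, and the leading ones included genes of connective tissue and of macrophages. Tst, a mitochondrial sulphurtransferase, led them with 6.85, 7.34 and 9.59 in rich arrays against 10.12, 10.81, 9.43, 10.47 and 10.83 in poor ones, a difference of -2.27 ± 0.54. The rich array at 9.59 was the one from wildtype estradiol, and it lay inside the poor range. Fcna, ficolin A of macrophages, read 6.28, 8.05 and 9.49 against 10.57, 10.14, 11.31, 10.49 and 9.29, a difference of -1.95 ± 0.35, and Pi16, a marker of adventitial fibroblasts, differed by -1.91 ± 0.49. Others of the 20 were the matrix and signalling genes Pcolce2 at -1.78, Sema3c at -1.74, Mfap5 at -1.55, Gpc3 at -1.55, Sfrp4 at -1.53 and Fndc1 at -1.46. Cd209f at -1.56, Cd209g at -1.50 and Fcrls at -1.43 are receptors of macrophages or of cells like them. The set also held Atp5l at -1.83, Efhd1 at -1.78, Alas2 at -1.59, the erythroid heme synthase, Ptgis at -1.57, the prostacyclin synthase, Tmem100 at -1.52, Gpr1 at -1.48, Akr1c18 at -1.47 and Smpd3 at -1.45. The call of Tst, Pi16, Mfap5, Tmem100 and Smpd3 was lost without wildtype placebo replicate 3 and without knockout placebo replicate 2. Atp5l kept its call in 7, Alas2 in 6 and Cd209g in 4 of the 12 single-array omissions. With the mean of all probe sets Fndc1 differed by -0.79 and Smpd3 by -0.75.

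Of 16 fibroblast and matrix genes 8 were past the threshold, all lower in rich arrays, with a median of -0.53. Lum, the matrix proteoglycan lumican, ranged from 9.56 through 10.09 to 11.72 in rich arrays against 11.92, 11.25, 12.51, 12.67 and 11.25 in poor ones, a difference of -1.10 ± 0.16. Without wildtype placebo replicate 3 the 8 became 1, without knockout placebo replicate 2 they became 2, and without knockout placebo replicate 3 they became 5. Of 14 white adipocyte genes 5 were lower. The adipocyte regulator Pparg read 10.73, 11.17 and 11.58 against 12.04, 11.80, 11.91, 11.72 and 11.73 with no overlap, a difference of -0.64 ± 0.10. The adipocyte hormone Adipoq differed by -0.12 ± 0.07 and the lipid carrier Fabp4 by -0.06 ± 0.09, neither past the threshold, so fat cell genes were present at high intensity in both classes. Only 1 of the 5 was past it without wildtype placebo replicate 3, 2 without knockout placebo replicate 2 and 3 without knockout placebo replicate 3.

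Tissue macrophage, mast cell and vessel genes were lower in rich arrays in part. Of 17 macrophage genes 5 were past the threshold, all lower. Among them were the complement gene C1qc at -1.01 ± 0.19 and the mannose receptor Mrc1 at -0.95 ± 0.18. Csf1r, the growth factor receptor of the lineage, read 0.05 ± 0.18. It was 1 of 5 macrophage genes with a positive difference, the largest being Aif1 at 0.80 and Lyz2 at 0.56, neither past the threshold. Of 8 mast cell genes 4 were lower, led by the protease Cma1 at -0.95 ± 0.23, and of 10 blood endothelium genes 4 were, with the receptor Tek and the sialomucin Emcn each at -0.69. Of 12 interferon response genes 3 were lower, Oasl2 at -1.25 ± 0.30, Ifit3 at -1.02 ± 0.30 and Ifit1 at -0.98 ± 0.26, and Mx1 read 0.73 ± 0.31. Without wildtype placebo replicate 3 or without knockout placebo replicate 2, 2 macrophage genes, 1 interferon response gene and no mast cell or blood endothelium gene was past the threshold. The macrophage count was also 2 without wildtype estradiol replicate 2 or knockout placebo replicates 1 or 3, and 3 without wildtype placebo replicate 1 or knockout estradiol replicate 1. The interferon count was 1 without knockout placebo replicate 1, 0 without knockout estradiol replicate 1 and 5 without wildtype estradiol replicate 3. The mast cell count was 1 without wildtype placebo replicate 1 and 2 without knockout placebo replicate 1, and the blood endothelium count was 2 without knockout placebo replicate 3 or knockout estradiol replicate 2.

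Other lists had few or no members past the threshold. It was 1 of 18 luminal epithelium genes, Gata3 at 0.97 ± 0.26, 1 of 9 neutrophil genes, the chemokine receptor Cxcr2, named after its value was seen, at 0.34 ± 0.11, 1 of 3 erythroid genes, Alas2, 1 of 3 Schwann cell genes, Pmp22 at -0.89 ± 0.25, and 1 of 15 genes of the estradiol and steroid receptor list, Ngfr, the low-affinity neurotrophin receptor, at -0.69 ± 0.11. Of 6 lymphatic endothelium genes Mmrn1 was higher at 0.83 ± 0.23 and Pdpn lower at -0.49 ± 0.12. None of 10 basal epithelium, 8 epidermis, 9 brown adipocyte, 10 lipogenesis and 15 skeletal muscle genes was. No neutrophil gene was past the threshold in 9 of the 12 single-array omissions, and 2 were without wildtype estradiol replicate 1. Gata3 kept its call in 7, Pmp22 in 8, Pdpn in 9 and Mmrn1 in 3 of the 12 omissions. With no group means in the fit Gata3 differed by 0.53, Pdpn by -0.74 and Ngfr by -1.41, and with the mean of all probe sets Mmrn1 differed by 0.36. Without wildtype estradiol replicate 1, 4 brown adipocyte genes were lower in rich arrays, 3 were without wildtype estradiol replicate 2 and 1 without knockout estradiol replicate 2. A p short of the threshold does not show that these genes did not differ.

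Skeletal muscle genes had a large median difference, -1.63, with no gene past the threshold, and the groups went opposite ways. Their score, the mean of log2 values centred over the 12 arrays, was -2.54 and -1.12 in the rich against 2.23 in the poor knockout estradiol array, and -2.98 and -3.24 against 1.95 in knockout placebo. It was -0.16 against 1.24 and 0.71 in wildtype estradiol, but 1.59 and 3.37 against -1.05 in wildtype placebo. Rich arrays thus lay below poor ones in 3 groups and above in wildtype placebo. Without wildtype placebo replicate 3, 11 of the 15 muscle genes were lower in rich arrays. With the muscle score in the fit, 3049 genes were past the threshold in place of 3914.

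**Figure D4:**
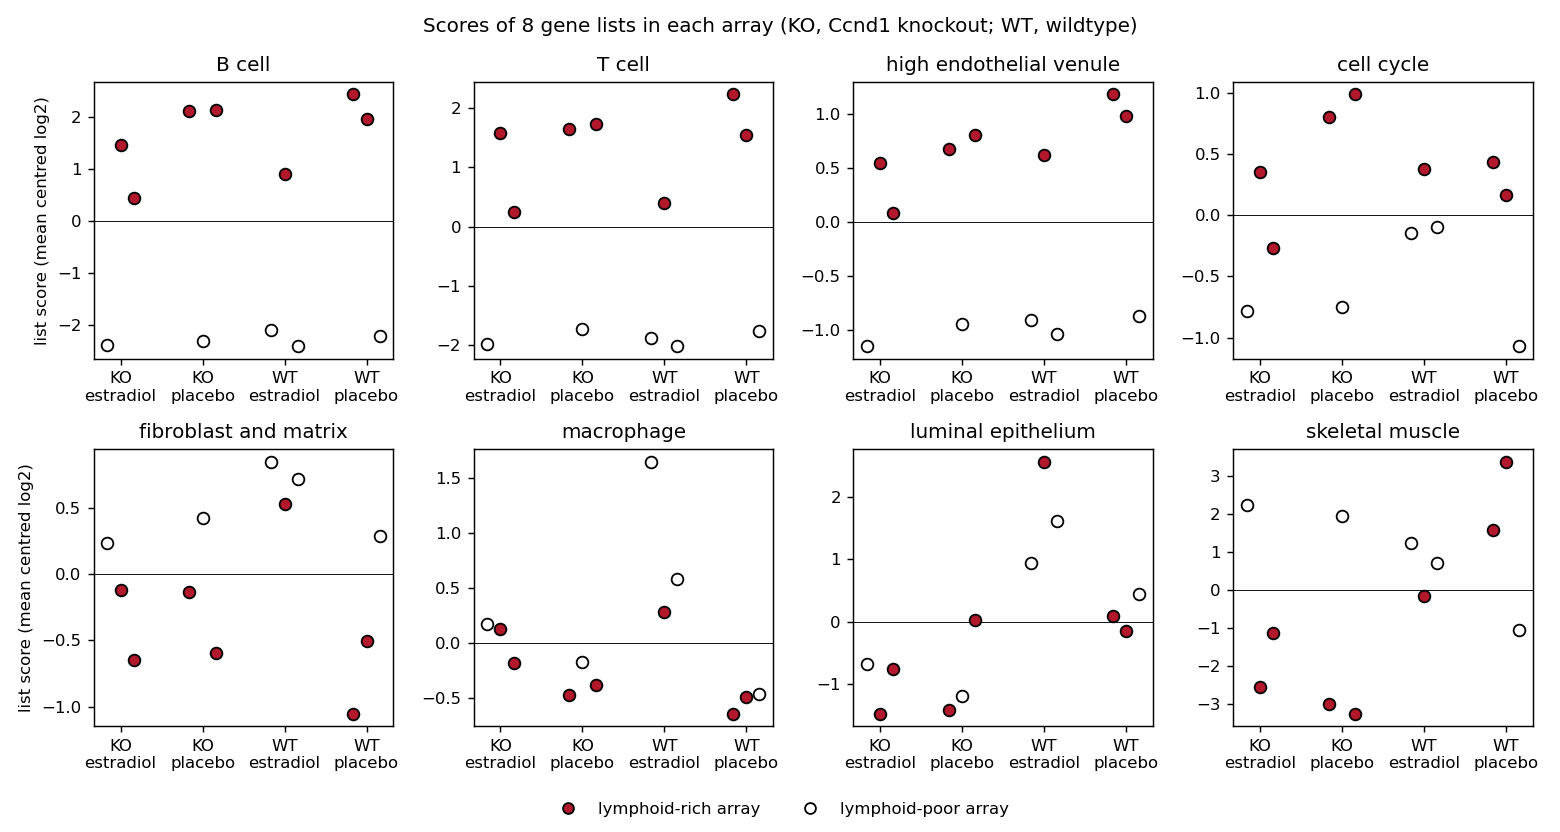
Scores of 8 gene lists (vertical axis, mean of centred log2 values) in each array by genotype and treatment (KO, knockout; WT, wildtype), filled for lymphoid-rich and open for lymphoid-poor arrays. B and T cell scores of the 2 classes do not overlap in any group, while muscle scores are lower in rich arrays in 3 groups and higher in wildtype placebo.

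The rich arrays were not alike among themselves. Their B cell score ran from 0.43 to 2.43 and their T cell score from 0.24 to 2.23, and knockout estradiol replicate 3 was lowest in both. Cd79a lay between 7.28 and 8.45 in the 3 rich arrays under estradiol and between 9.0 and 9.54 in the 4 under placebo. Cd22 lay between 9.67 and 10.69 under estradiol and between 11.45 and 11.96 under placebo, and Mki67 between 8.52 and 9.11 under estradiol and between 9.51 and 10.58 under placebo. Il7r lay at 9.09 to 11.02 under estradiol and 10.60 to 11.35 under placebo, and Pou2af1 at 7.98 to 9.21 and 9.13 to 9.90. In the same order Ms4a1 lay at 9.78 to 10.90 and 11.36 to 11.77. Glycam1 lay at 10.90 to 12.81 and 12.23 to 13.50, and Ccr7 at 7.64 to 9.59 and 9.14 to 9.82. How many of all genes lay apart between the treatments in these arrays was not counted, so the ranges do not show a treatment difference. The B cell score minus the T cell score lay between -0.13 and 0.50 in the rich arrays, with no test made on 3 and 4 arrays chosen by their own B cell signal. Among poor arrays, wildtype estradiol replicate 1 had a macrophage score of 1.65 and a pan-leukocyte score of -0.49, the highest of the 5 in both.

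The labelled factors allow tests that the choice of arrays does not fix. Averaged over both genotypes, the estradiol comparison called 668 genes when the class was in the model (3.67% of all tested), 539 higher and 129 lower, and 287 when it was not (1.58%), 261 higher and 26 lower. All 287 were among the 668. The median standard error over all genes was 0.107 with the class and 0.125 without it. Under quantile scaling 422 were higher and 176 lower, a share of 70.6% higher in place of 80.7%. The count with the class moved with single arrays: it was 321 without knockout placebo replicate 2, 375 without wildtype estradiol replicate 2, 397 to 426 without knockout estradiol replicate 2, knockout placebo replicates 1 or 3 or wildtype placebo replicates 1 or 2, and 1193 without wildtype placebo replicate 3. It was 1055, with 676 higher and 379 lower, with the Gapdh difference in the fit.

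The strongest estradiol responses were little touched by the class. Mmd2, a membrane protein of the progestin and adipoQ receptor family, ranged from 12.15 through 12.70 to 12.89 under estradiol against 5.96, 6.26 and 6.88 under placebo, a rise of 6.30 ± 0.10 with the class in the fit (limma adjusted p = 1.14e-09) and 6.29 ± 0.10 without it. Greb1, an estrogen receptor cofactor and target, rose by 5.06 ± 0.16 with the class (limma adjusted p = 3.51e-07) and 5.12 ± 0.19 without. Ngfr rose by 2.98 ± 0.11 with the class (limma adjusted p = 7.39e-07) and 3.10 ± 0.23 without, so that its standard error was smaller with the class. With the mean of all probe sets of a gene in place of the brightest one, the rise with the class was 3.95 for Mmd2, 2.48 for Greb1 and 1.45 for Ngfr. Of the 15 genes of the estradiol and steroid receptor list 12 were called, all higher, and they remained called without any single array. That list, which holds Mmd2, Greb1 and Ngfr, was chosen with earlier results of these data known. Its count thus describes the members and does not test them.

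The genes gained in the estradiol comparison were led by Igfbp6, a binding protein of insulin-like growth factor II. It ranged from 10.92 through 12.29 to 13.14 under estradiol against 7.89, 10.07 and 11.28 under placebo, which overlap, and rose by 2.14 ± 0.38 (limma adjusted p = 0.0151 with the class and 0.0661 without). C3ar1, the receptor for complement C3a, rose by 1.87 ± 0.25 (adjusted p = 0.00417 and 0.0615), and Pla1a, a phospholipase, by 1.84 ± 0.25 (0.00429 and 0.0613). The interferon-induced Ifit3 rose by 1.73 ± 0.28 (adjusted p = 0.0104 and 0.0512) and Fcna by 1.62 ± 0.33 (0.0280 and 0.188). Vgll3 at 1.73, Clca1 at 1.81, Cbr2 at 1.65, Adgrd1 at 1.57 and Mmp19 at 1.55 completed the 10 largest. The call of Igfbp6 was lost without wildtype estradiol replicate 2 or knockout placebo replicate 2, that of Fcna in 5 and that of Clca1 in 9 of 12 omissions, and the other 7 kept theirs in all 12. With the mean of all probe sets the Clca1 difference was 0.94. Clca1 averaged 2.89 under placebo and 3.30 under estradiol in knockout mice, against 3.01 and 6.10 in wildtype mice. Its rise thus came mainly from the wildtype estradiol arrays.

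**Figure D5:**
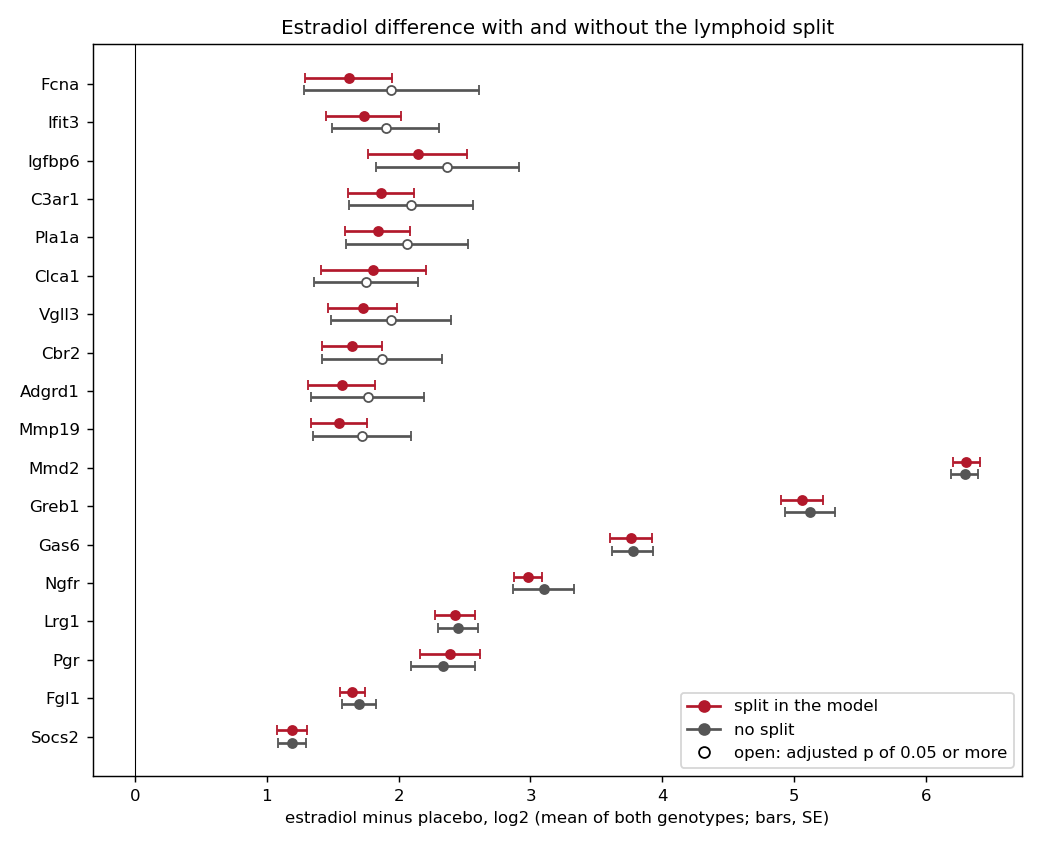
Estradiol minus placebo difference in log2 intensity (horizontal axis; bars, SE) with the lymphoid class in the model and without it, for the 10 largest gained genes and for 8 genes of the estradiol list. Open points have an adjusted p of 0.05 or more: the upper 10 genes are open without the class and filled with it, and Mmd2 stands at 6.30 with it and 6.29 without.

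By gene list, macrophage genes gained most in the estradiol comparison. With the class in the fit 7 of 17 rose, against 2 without it, among them C1qc by 1.18 ± 0.18 (limma adjusted p = 0.00775 with and 0.0958 without) and the Fc receptor Fcgr1 by 2.18 ± 0.26 (0.00216 and 0.0144). The 7 became 2 without knockout placebo replicate 2. Cd14, Mrc1, Cd163 and Fcgr3 lost their calls without knockout estradiol replicate 2, and Cd14, Mrc1 and Cd163 without wildtype estradiol replicate 2. Of 16 fibroblast and matrix genes 3 rose, Lum by 1.26 ± 0.16 (limma adjusted p = 0.00294 with and 0.0847 without), Loxl1 by 1.19 ± 0.19 (0.00860 and 0.0850) and Pdgfra by 1.16 ± 0.10 (0.000546 and 0.00379), and all 3 were kept without any single array. Of 12 interferon response genes 6 rose and Cxcl9, a chemokine induced by interferon gamma, fell by 1.14 ± 0.18 (limma adjusted p = 0.00846 with and 0.0121 without). Macrophage, fibroblast and interferon genes that rose under estradiol and were lower in rich arrays included C1qc, Mrc1, Lum, Loxl1, Ifit1, Ifit3 and Oasl2. With Pou2af1 as a continuous covariate these genes kept their calls with smaller rises, among them C1qc at 1.06, Mrc1 at 0.81 and Lum at 1.13. Cd163 lost its call there (limma adjusted p = 0.0518). Lymphoid content within the classes was not separated from treatment for these genes.

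Among B cell genes 3 of 20 fell under estradiol with the class in the fit and none did without it. Ms4a1 fell by 1.27 ± 0.18 (limma adjusted p = 0.00610 with and 0.585 without), Tnfrsf13c, the receptor for the survival factor BAFF, by 1.18 ± 0.22 (0.0185 and 0.488) and Cd79a by 1.13 ± 0.20 (0.0162 and 0.447). With Pou2af1 as a continuous covariate in place of the 2 classes, Cd79a fell by 0.72 ± 0.14 (limma adjusted p = 0.0231) and Tnfrsf13c by 0.69 ± 0.12 (0.0183), whereas Ms4a1 read -0.51 ± 0.21 (adjusted p = 0.230). The call of Cd79a was lost without wildtype estradiol replicate 2 or knockout placebo replicate 2, that of Tnfrsf13c without wildtype estradiol replicate 2, and Ms4a1 kept its call in all 12 omissions. Glycam1 fell by 1.03 ± 0.18 with the class (limma adjusted p = 0.0155) and read -0.19 ± 0.33 with the continuous covariate (0.798). No T cell list gene was called in this comparison. With the class the list medians still lay close, at -0.75 for B cell and -0.72 for T cell genes. In other leukocyte lists Tbx21 read -0.84 ± 0.14 (limma adjusted p = 0.0134 with and 0.0221 without) and kept its call in all 12 omissions. Rasgrp3, Klre1, Ikzf3 and H2-Oa were also called and lower, and kept their calls in 3, 1, 7 and 2 omissions. The B cell genes and Glycam1 track the gene that chose the arrays, and the rich arrays under estradiol read lower than those under placebo. Within-class lymphoid content and treatment thus cannot be told apart here.

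Averaged over both treatments, the genotype comparison called 36 genes with the class in the fit (0.198%), 1 higher and 35 lower in knockout mice. It called 0 without the class (0%), where 1845 genes had an unadjusted p under 0.05 by limma. The targeted gene itself, Ccnd1, ranged from 7.24 through 7.50 to 7.68 in knockout arrays against 8.50, 9.26 and 10.82 in wildtype arrays, with no overlap, and fell by 1.98 ± 0.21 (limma adjusted p = 0.0443 with the class and 0.0687 without). Dsp, a desmosome protein of epithelium, ranged from 3.30 through 4.10 to 5.85 in knockout against 5.86, 6.98 and 9.52 in wildtype arrays and fell by 3.09 ± 0.48 (limma adjusted p = 0.0460 with and 0.0833 without). Cdh1, E-cadherin, fell by 2.70 ± 0.39 (0.0443 and 0.0833), the splicing regulator Esrp1 by 2.60 ± 0.40 (0.0461 and 0.0833) and the progesterone receptor Pgr by 1.79 ± 0.23 (0.0443 and 0.0687). Cxcl15 at -2.36, Perp at -1.98, Cdcp1 at -1.98, Kcnk1 at -1.94 and Urah at -1.66 also fell. Fgl1, a secreted liver-type protein, rose by 0.69 ± 0.10 (limma adjusted p = 0.0443 and 0.125). For some genes the mean over treatments came mostly from estradiol. Cxcl15 averaged 5.43 in knockout and 5.52 in wildtype mice under placebo, but 5.78 and 10.49 under estradiol. Perp averaged 5.42 and 5.74 under placebo, but 5.01 and 8.65 under estradiol. Ccnd1 differed under both, with 7.56 and 8.81 under placebo and 7.41 and 10.02 under estradiol.

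These genotype calls sat at the threshold and rested on single arrays. The count was 0 without knockout estradiol replicates 2 or 3, knockout placebo replicates 1 or 2 or wildtype placebo replicates 1 or 2. It was 2, 5, 10 and 14 without wildtype estradiol replicate 3, wildtype estradiol replicate 2, knockout estradiol replicate 1 and wildtype placebo replicate 3, and 125 without wildtype estradiol replicate 1. None of the 10 named genes that fell was called in all 12 omissions. With Pou2af1 as a continuous covariate 97 genes were called. With the mean of all probe sets the knockout minus wildtype difference was -1.97 for Dsp, -1.32 for Ccnd1 and -0.92 for Pgr.

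The interaction, the knockout response to estradiol minus the wildtype response, called 0 genes with the class in the fit (0%) and 2 without it (0.011%), Padi4 and Anln. The size of both changed little: Padi4 read -2.15 ± 0.23 with the class (limma adjusted p = 0.0652) and -2.14 ± 0.23 without it (0.0378), and Anln -1.97 ± 0.23 with the class (adjusted p = 0.0652) and -1.96 ± 0.22 without it (0.0378). With the class 2209 genes had an unadjusted p under 0.05 by limma, against 1170 without it. The interaction count reached 38 without wildtype estradiol replicate 1 and 14, 12, 3 and 1 without wildtype placebo replicate 3, knockout estradiol replicate 1, wildtype estradiol replicate 2 and wildtype estradiol replicate 3.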

How the data were processed

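Total RNA of 12 mammary glands was measured on single-colour Affymetrix arrays. The deposited values are log2 intensities of 45101 probe sets. Per the submitters' processing notes the authors used RMA and limma 2.9.16, with no chip definition given. By the platform annotation 34945 probe sets had a single gene (1), 932 had several, 9160 had none and 64 were controls. That gave 18193 genes, of which 18032 matched RefSeq, each read from its brightest probe set on average, with no filter. Array medians lay between 5.73 and 5.80, and the number of arrays limits the precision.

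The members and gene lists (34 lists, 387 of 427 entries measured) were chosen with earlier results of these data known. limma 3.58.1 (R 4.3.3) fitted 4 group means plus 1 indicator for Pou2af1 of 6 or more (7 residual and 2.74 prior degrees of freedom), with eBayes, two-sided p-values and Benjamini-Hochberg adjustment over all genes, and calls at 0.05. Values after ± are SE from this fit unless SD is stated. The rich minus poor calls describe the choice of arrays. Named genes were the 4 markers, the 20 largest called differences each way, up to 4 members per list, the 10 largest changes of call per comparison, the estradiol list and the 10 genes closest to Pou2af1. On data simulated with 200 of 18193 genes changed by 1 log2 unit, 83.0% were recovered for rich minus poor, 84.0% for estradiol and 82.5% for genotype. False calls were 8, 4 and 14. The simulated noise was independent between genes, whereas genes of a real array can shift together. These shares therefore do not show how firm the counts of this report are. The samples are separate mice per the series description. Alternatives were other probe set summaries, filters, scalings, priors and covariates, the replicate number as a block, and leaving out each array. The covariates for muscle score and Gapdh were chosen after seeing the data. Python 3.11.15 and matplotlib 3.10.9 made the figures.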

Additional observations from a re-analysis of the deposited data

Results flagged for a closer look

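List scores and the log2 levels of Pou2af1, Cd79a, Cd22 and Il7r were compared between single arrays and the rest of their class. In 7 of 76 checks, all on list scores, an array stood apart from the others. Chance gives about 1 in 20 for arrays of a single group. The classes mix the 4 groups, so a difference between groups can also set an array apart, and the 2 were not separated. Wildtype estradiol replicate 2, a rich array, stood above the other 6 rich arrays in the luminal epithelium score at 2.56 (next 0.09), the basal epithelium score at 1.37 (next -0.16) and the score of D-type cyclins and kinases at 0.63 (next 0.11). It is the only rich array of its group, and the 2 poor wildtype estradiol arrays read 0.95 and 1.61 in the luminal score, 0.69 and 0.97 in the basal score, and 0.19 and 0.26 in the cyclin score. Wildtype estradiol replicate 1, a poor array, was highest of the 5 poor arrays in the pan-leukocyte score at -0.49 (next -1.60). Knockout placebo replicate 3 was highest of the rich arrays in the score of antigen receptor recombination genes at 0.85 (next 0.17). Wildtype placebo replicate 1 was lowest of the rich arrays in the white adipocyte score at -0.41 (next -0.16). Knockout estradiol replicate 1 was lowest of the poor arrays in the Schwann cell score at -0.84 (next 0.62).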

How the results depend on the processing

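With each array left out in turn, the rich minus poor comparison called 1260 to 4855 genes, the estradiol comparison 321 to 1193, the genotype comparison 0 to 125 and the interaction 0 to 38, against 3914, 668, 36 and 0 with all arrays. With no lymphoid class in the fit the last 3 counts were 287, 0 and 2. The Gapdh covariate gave 2001 rich minus poor, 1055 estradiol and 0 genotype calls, and the muscle covariate 1 genotype call. The genotype comparison called 15 genes with the mean of all probe sets, 0 under quantile scaling, 0 with the replicate block and 97 with Pou2af1 as a continuous covariate. The interaction called 5 with the mean of all probe sets, 6 with trend and robust priors and 23 with the continuous covariate. The cause of these shifts was not tested. The replicate block gave 3890 rich minus poor and 538 estradiol calls and no interaction call. The replicate numbers share only a label, since deviations of same-numbered arrays from their group means correlated from -0.74 to 0.66. With the mean of all probe sets the rich minus poor difference turned positive for Zap70 (1.26), Tnfsf11 (0.70) and Ccnd3 (0.61). Under the other settings run on all 12 arrays these counts stayed within 1.5 times of those reported. Of 86 named genes called in rich minus poor, 57 were called under every setting run. The Pou2af1 difference lay between -2.69 and -1.18 for estradiol and between 0.38 and 1.88 for knockout over single-array omissions, and at -1.68 and 0.59 with the mean of Cd79a, Cd22 and Il7r.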
